A study of Homo sapiens with 8 samples.

Results

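The 10 Frizzled, LRP and Dishevelled genes examined here, FZD3, FZD4, FZD5, FZD6, FZD7, LRP5, LRP6, DVL1, DVL2 and DVL3, were chosen by name as receptor-level components of the Wnt pathway, out of 25192 genes listed in each library. A secreted Wnt ligand binds a Frizzled receptor, which spans the membrane several times, together with the single-pass coreceptor LRP5 or LRP6. The occupied receptor recruits a Dishevelled protein, and the complex draws Axin and its kinases to the LRP tail, which spares β-catenin from destruction. In colorectal cancer cells with truncated APC, β-catenin is stabilised below this receptor step, and Frizzled proteins can also signal without LRP through planar cell polarity and calcium branches.

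RNA was sequenced from HT29 and SW480, both established human colorectal cancer cell lines that carry truncated APC. Each line was transfected for 36 h with siRNA against PRDX2, which encodes the peroxide-reducing enzyme peroxiredoxin II (PrxII), or with a control siRNA. HT29 was kept in McCoy's 5A medium and SW480 in RPMI1840 medium, both with 10% fetal bovine serum, so the medium differs with the line. The study's methods describe the sequencing of HT29 only. Medium and any difference in sequencing cannot be told apart from the line. Each of the 4 groups had 2 libraries, and since the labels say only that experiments were done in duplicate, the p-values measure the spread between these libraries, which may be technical.

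All 10 genes passed the filter of at least 10 counts in at least 2 libraries in every comparison, and their 80 values ran from 22 to 3956 expected counts. The depth was 8857442 to 10164137 deposited counts in a library, and 3 counts were worth 0.295 to 0.339 CPM, a unit that scales counts to the library total. PRDX2 itself went from 148.1 and 153.8 to 82.4 and 83.2 CPM in HT29 cells and from 209.1 and 246.1 to 69.5 and 70.7 CPM in SW480 cells. The markers of colorectal epithelium were at 1 TPM (transcripts scaled for length and library total) or more for 10 of 10 genes in every HT29 group and for 7 of 10 in every SW480 group. The summed level of 6 leukocyte, fibroblast and endothelial markers was 1.23 to 2.31 TPM in HT29 and 8.55 to 10.84 TPM in SW480. Of these markers, 1 was at 1 TPM or more in every HT29 group and 2 in every SW480 group. The leukocyte gene PTPRC was listed at 0 throughout. CD3E, the other leukocyte marker, was at 0 in HT29 but not in all SW480 libraries.

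One library stood apart in a way that touches the 10 genes. The duplicates with control siRNA in SW480 cells differed by a chi-square of 11.2 per degree of freedom, against 1.43 to 2.13 in the other 3 groups. Across genes, replicate 2 minus replicate 1 of that group rose with the share of G and C bases (GC) in the transcript, with a Spearman's rho of 0.69 over 14251 genes, against 0.13 to 0.18 in the other groups. Genes share their library in this correlation and are not replicates. The length that was subtracted from each transcript to give its effective length was 59.3 bases in replicate 1 of that group and 51.7 to 53.8 bases in the other 7 libraries. Fold changes of the 10 genes after PrxII siRNA in SW480 cells are therefore also given without this library and with a correction for GC content. The correction is fitted in every library, so it also removes any part of the siRNA effect that runs along GC.

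The 10 transcripts cover a wide range of GC. It was 34.9% in FZD3, 37.7% in FZD6, 40.9% in LRP6, 46.2% in FZD4 and 51.3% in FZD5. The other genes were above this, at 56.4% in FZD7 and in DVL3, 60.3% in DVL2, 62.9% in LRP5 and 67.5% in DVL1. The sister coreceptors LRP5 and LRP6 lie far apart on this scale although they encode related proteins. The following stretches of 150 coding bases (GRCh37, 5′ to 3′ on the coding strand, G and C in capitals) show this difference, which the values in SW480 cells followed. The LRP6 stretch opens its longest coding exon, exon 6 of 23, at chr12:12334224-12334373 on the minus strand, and 64 of its 150 bases (42.7%) are G or C. The LRP5 stretch is its best ungapped match, in exon 6 of 23 at chr11:68153784-68153933 on the plus strand, with 97 of 150 (64.7%). Both are identical at 104 of 150 positions. The DVL1 stretch opens exon 15 of 15 at chr1:1271746-1271895 on the minus strand, with 110 of 150 (73.3%), and comes from the most GC-rich of the 10 transcripts. Over the whole coding sequence, GC was 46.5% in LRP6, 63.6% in LRP5 and 65.9% in DVL1. The stretches thus show a wider contrast than the whole coding sequences.
LRP6: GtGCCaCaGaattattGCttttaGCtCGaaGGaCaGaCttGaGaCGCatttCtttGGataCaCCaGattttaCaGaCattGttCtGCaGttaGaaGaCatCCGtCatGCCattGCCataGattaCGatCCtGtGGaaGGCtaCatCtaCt
LRP5: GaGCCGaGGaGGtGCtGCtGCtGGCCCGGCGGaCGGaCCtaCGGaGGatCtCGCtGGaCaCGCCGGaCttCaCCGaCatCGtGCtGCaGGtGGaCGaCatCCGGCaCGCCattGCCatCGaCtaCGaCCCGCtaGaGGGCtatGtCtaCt
DVL1: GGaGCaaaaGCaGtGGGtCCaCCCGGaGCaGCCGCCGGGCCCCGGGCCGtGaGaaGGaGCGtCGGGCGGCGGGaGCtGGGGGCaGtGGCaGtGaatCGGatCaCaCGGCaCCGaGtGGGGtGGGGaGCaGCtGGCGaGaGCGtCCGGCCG

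The first comparison asked how the receptor step differs between the lines without PrxII depletion. Of the 10 genes, 8 differed between HT29 and SW480 cells with control siRNA (edgeR's quasi-likelihood test, Benjamini-Hochberg adjusted p under 0.05), where 67.5% of the 14346 genes tested did. The share among the 10 is thus near that of all genes. In RNA pooled from a culture, fewer cells that express a gene and less RNA per cell cannot be told apart. FZD5, LRP5 and DVL1 were higher in HT29, where 31.8% of all genes were called higher, and FZD3, FZD4, FZD7, DVL2 and DVL3 were lower, where 35.7% were. The same 8 genes were called after the GC correction, where 77.5% of all genes were, and leaving out a library kept their direction. FZD6 and LRP6 did not pass the test. CPM of the lines did not overlap for 8 of the 10 genes, against 84% of all genes tested.

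**Figure D1:**
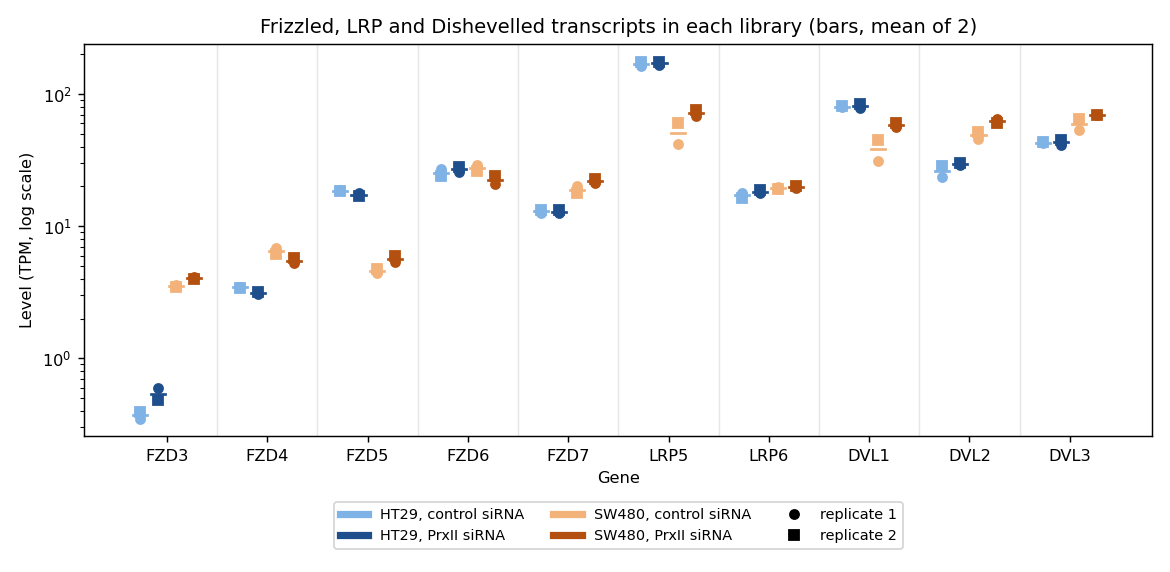
Level of each of the 10 genes (y axis, TPM on a log scale) in every library, by line, siRNA and replicate; horizontal bars are means of 2 libraries. FZD3 in HT29 lies at 0.35 to 0.6 TPM in all 4 libraries, LRP5 in HT29 at 163.9 to 175.4 TPM, and the SW480 control duplicates are spread most for LRP5 and DVL1.

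Among the Frizzled receptors, FZD3 (chr8:28351722-28431784, plus strand) was low in HT29. It is best known for its part in planar cell polarity and axon guidance. It was at 0.35 and 0.39 TPM in the HT29 control libraries and at 3.56 and 3.45 TPM in the SW480 control libraries, and the groups were far apart. The log2 fold change, HT29 over SW480, was -3.11 (SE 0.21, adjusted p = 2.83e-06). The HT29 values rest on 22 and 24 counts.

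FZD5 (chr2:208627322-208634630, minus strand), a receptor of canonical Wnt signals in the intestinal epithelium, went the other way. Its levels were 18.66 and 18.42 TPM in HT29 control libraries and 4.46 and 4.76 TPM in those of SW480. The log2 fold change of 2.13 (SE 0.14, adjusted p = 2.15e-06) corresponds to 4.38-fold more in HT29.

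FZD4 (chr11:86656721-86666437, minus strand), which also binds the non-Wnt ligand norrin, was at 3.46 and 3.43 TPM in HT29 and 6.81 and 6.18 TPM in SW480, a log2 fold change of -0.79 (SE 0.16, adjusted p = 0.00222). FZD7 (chr2:202898578-202903164, plus strand), a receptor of intestinal stem cells, was at 12.68 and 13.24 TPM in HT29 and 20.02 and 17.73 TPM in SW480. Its log2 fold change of -0.41 (SE 0.14, adjusted p = 0.0247) missed the threshold with DESeq2 (adjusted p = 0.0696). It also missed it without either HT29 control library, with adjusted p of 0.319 without replicate 1 and 0.238 without replicate 2. FZD6 (chr8:104310661-104345094, plus strand), associated with planar cell polarity, had 26.88 and 23.96 TPM in HT29 and 29.26 and 26.0 TPM in SW480. The lines overlapped, and the 95% confidence interval of its log2 fold change of 0.01 ran from -0.29 to 0.31.

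The coreceptors separated. LRP5 (chr11:68080059-68216743, plus strand) was at 163.9 and 173.5 TPM in HT29 and at 41.7 and 60.6 TPM in SW480. Both HT29 libraries lay above both SW480 libraries, with a log2 fold change of 1.85 (SE 0.17, adjusted p = 1.85e-05) and of 1.55 after the GC correction. LRP6 (chr12:12268959-12419978, minus strand) was at 17.92 and 16.28 TPM in HT29 and 19.9 and 18.98 TPM in SW480. The difference in LRP6 did not pass the test, with a log2 fold change of -0.06 and an interval from -0.31 to 0.20.

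The Dishevelled genes, which encode the cytoplasmic relay between receptor and Axin, split as well. DVL1 (chr1:1270656-1284798, minus strand) was at 79.3 and 81.5 TPM in HT29 and 31.3 and 45.1 TPM in SW480, with a log2 fold change of 1.196 (SE 0.17, adjusted p = 2.64e-04). The GC correction moved the DVL1 value to 0.78 (interval from 0.63 to 0.93), with the same direction. DVL2 (chr17:7128661-7137836, minus strand) was at 23.4 and 28.5 TPM in HT29 and 45.8 and 51.5 TPM in SW480, a log2 fold change of -0.78 (SE 0.14, adjusted p = 0.00125). It missed the threshold without HT29 control replicate 1 (adjusted p = 0.0517). DVL3 (chr3:183873165-183891402, plus strand) was at 42.3 and 43.0 TPM in HT29 and 53.2 and 65.3 TPM in SW480, a log2 fold change of -0.35 (SE 0.13, adjusted p = 0.0372). It missed the threshold without the filter on low counts (adjusted p = 0.0534) and without either HT29 control library (adjusted p = 0.334 and 0.288).

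**Figure D2:**
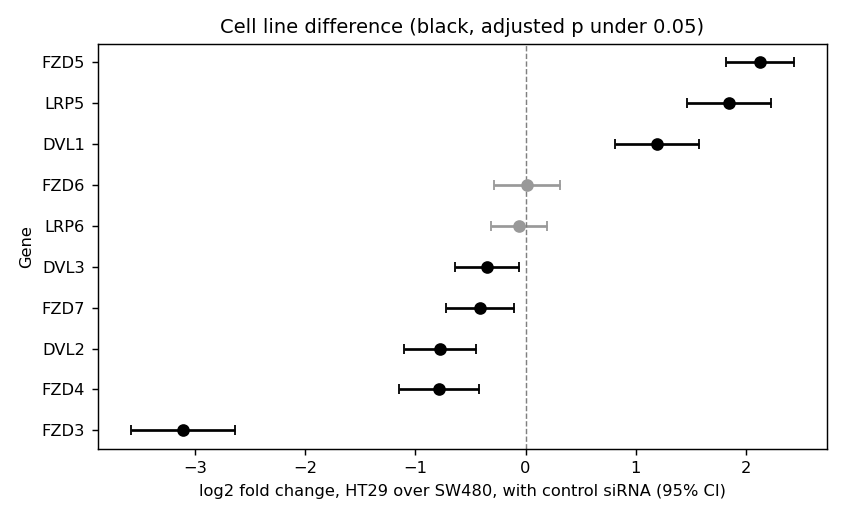
Log2 fold change of HT29 over SW480 cells with control siRNA (x axis) for each gene, with 95% confidence intervals from edgeR; black points have an adjusted p under 0.05. FZD5, LRP5 and DVL1 lie to the right, 5 genes lie to the left with FZD3 farthest at -3.11, and the grey points of FZD6 and LRP6 have intervals that include 0.

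Because TPM is scaled per transcript length, it also allows levels of different genes to be ordered within a line. In HT29 control libraries LRP5 was highest at 168.7 TPM ± 6.8 (SD, n = 2), followed by DVL1 (80.4 TPM), DVL3 (42.7 TPM), DVL2 (26.0 TPM) and FZD6 (25.4 TPM). The duplicates of DVL2 and FZD6 overlapped, and all other neighbours in the order were separate. FZD5 (18.5 TPM), LRP6 (17.1 TPM), FZD7 (12.96 TPM), FZD4 (3.44 TPM) and FZD3 (0.37 TPM) completed the order. In SW480 control libraries DVL3 (59.2 TPM), LRP5 (51.1 TPM) and DVL2 (48.7 TPM) led and overlapped with their neighbours, as did LRP6 (19.4 TPM) and FZD7 (18.9 TPM).

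Levels were also compared as shares within each family, counting only the 10 genes. The 5 listed Frizzled genes summed to 57.0 to 64.1 TPM over all 8 libraries of both lines. FZD1, FZD2, FZD8, FZD9 and FZD10 are not in this sum. With control siRNA, 4 of them were tested between the lines and 4 were lower in HT29. The sum and the shares therefore do not stand for all Frizzled transcripts. The sum of LRP5 and LRP6 was 181.8 to 194.1 TPM in HT29 and 61.6 to 95.5 TPM in SW480, and that of the Dishevelled genes 145.1 to 159.1 and 130.4 to 190.1 TPM. Shares in these sums were compared between 4 HT29 and 4 SW480 libraries, control and PrxII siRNA together, by a two-sided exact permutation test whose smallest possible p is 0.0286. Of 10 shares compared, 9 were at this exact p = 0.0286, which is reached wherever the libraries of the lines do not overlap. With control siRNA, CPM of the lines did not overlap for 84% of all genes tested. The permutation test treats the siRNA groups of a line as exchangeable. Permuted within each siRNA, 36 arrangements allow no exact p below 0.0556, so no share could pass 0.05, and the same 9 shares were at that value. Shares of a family add up to 100%, so they are not independent of each other.

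Among transcripts of the listed Frizzled genes, FZD6 took 43.1% ± 2.2 in HT29 and 41.4% ± 4.4 in SW480 (SD, n = 4 each, exact p = 0.514). FZD5 took 29.5% ± 1.6 in HT29 against 8.55% ± 1.23 in SW480, and FZD7 21.3% ± 0.8 against 33.9% ± 3.5. The shares of FZD4 and FZD3 were 5.41% and 0.75% in HT29 and 9.92% and 6.30% in SW480. LRP5 accounted for 90.6% ± 0.6 of the LRP5 and LRP6 sum in HT29 and for 75.2% ± 5.1 in SW480. The ratio of LRP5 to LRP6 was 9.14 to 10.7 in HT29 and 2.09 to 3.71 in SW480, lowest in control replicate 1 of SW480. DVL1 was 53.4% ± 0.9 of Dishevelled transcripts in HT29 and 28.4% ± 3.3 in SW480, while DVL3 was 28.3% ± 0.6 and 38.4% ± 2.5, and DVL2 18.3% ± 1.5 and 33.2% ± 1.6.

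**Figure D3:**
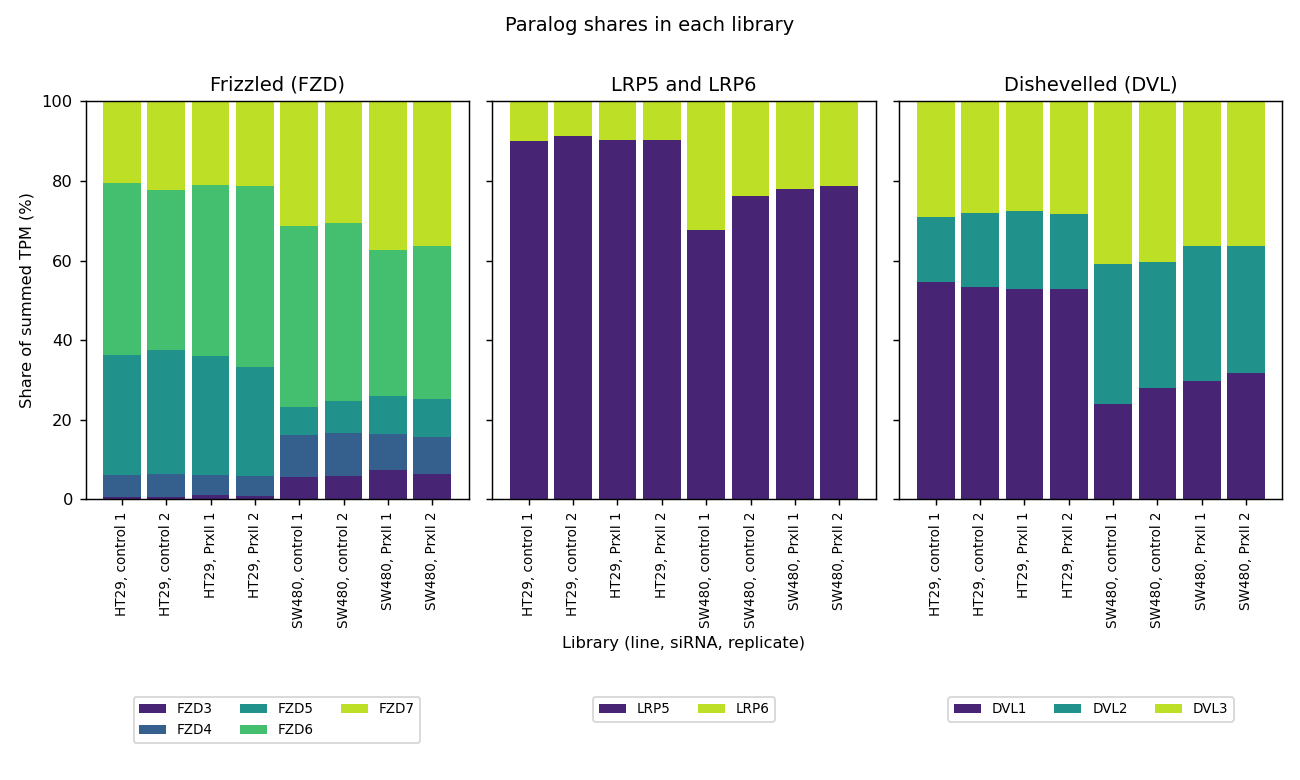
Share of each gene in the summed TPM of the listed members of its family (y axis, %) in each of the 8 libraries, stacked to 100%. Other Frizzled genes are not counted. FZD5, LRP5 and DVL1 take wider parts of the HT29 bars, and the FZD6 part is similar in both lines, at a mean of 43.1% and 41.4%.

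Within a line, 2 libraries against 2 cannot give an exact p below 1 in 3, so shares after PrxII siRNA are values only. In HT29 they moved little, LRP5 from a mean of 90.8% to 90.4% and DVL1 from 54.0% to 52.8%. In SW480 the share of FZD6 went from 45.2% to 37.6%, that of FZD7 from 30.9% to 36.8% and that of DVL1 from 26.0% to 30.8%. Without control replicate 1, the SW480 control values are those of replicate 2, 44.7% for FZD6, 30.5% for FZD7 and 27.9% for DVL1.

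The second comparison asked whether PrxII depletion changes the receptor-level transcripts in HT29 cells. None of the 10 genes passed the edgeR test in HT29 cells, where 17.6% of 12961 genes did. At an unadjusted p under 0.05 there was 1 (FZD5), for which no share of all genes is given. DESeq2 called 0 of the 10 and 871 of 12961 genes, with 0 of the 10 at an unadjusted p under 0.05. FZD3 and FZD4 had no DESeq2 adjusted p and could not be called there. After the GC correction 0 of the 10 and 21.8% of all genes were called. CPM of the groups did not overlap for 4 of the 10 genes (FZD3, FZD4, FZD5 and FZD7) against 57% of all genes. The median log2 fold change of the 10 genes was -0.05, and that of all genes tested was 0.00.

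FZD5 came nearest to a call. Its CPM were 56.9 and 56.2 with control siRNA and 51.5 and 49.2 with PrxII siRNA, so both depleted libraries were below both controls. The log2 fold change was -0.17 (interval from -0.30 to -0.04, adjusted p = 0.0701). FZD4 was likewise lower in both depleted libraries, at 10.0 and 10.5 CPM against 11.9 and 11.8 CPM, with a log2 fold change of -0.21 and an interval from -0.49 to 0.08. FZD3 went from 2.26 and 2.50 to 3.71 and 2.94 CPM, and its interval was the widest of the 10, from -0.09 to 1.06 on the log2 scale.

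For the other Frizzled genes the intervals were -0.15 to 0.17 (FZD6) and -0.28 to 0.13 (FZD7). The most abundant members gave the narrowest intervals. LRP5 was at 389.7 and 412.8 CPM with control siRNA and at 378.3 and 400.3 CPM with PrxII siRNA, with a log2 fold change between -0.12 and 0.03. LRP6 lay between -0.10 and 0.15, DVL1 between -0.16 and 0.06 and DVL3 between -0.17 and 0.06. DVL2 went from 32.5 and 39.7 to 38.3 and 40.4 CPM, an interval from -0.06 to 0.31. Its groups overlapped, and its log2 fold change was 0.27 without control replicate 2 and -0.01 without control replicate 1.

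**Figure D4:**
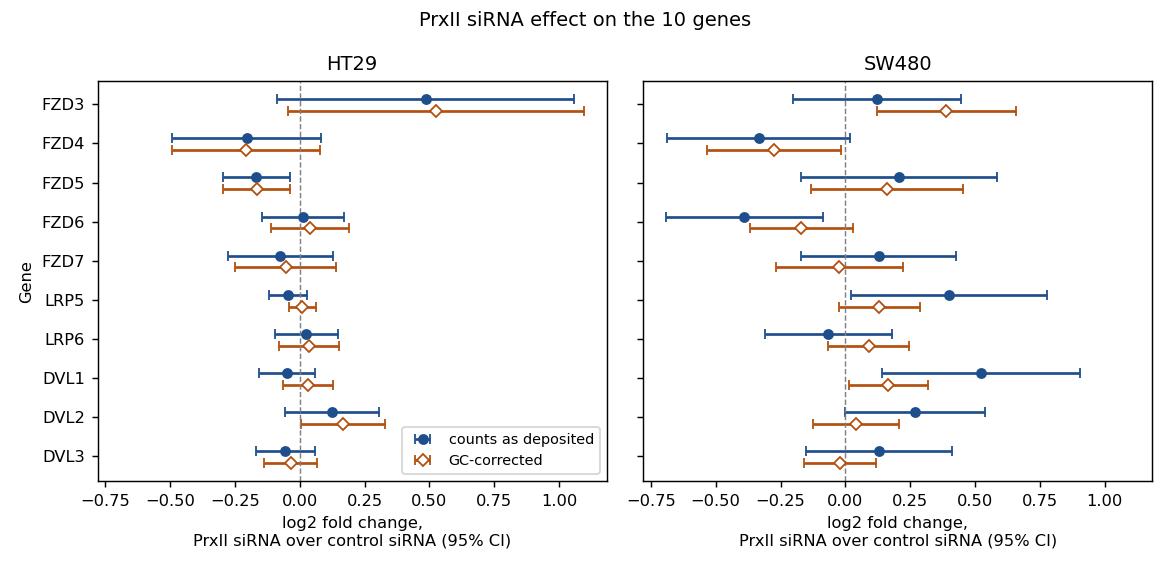
Log2 fold change of PrxII siRNA over control siRNA (x axis) with 95% confidence intervals from edgeR in HT29 (left) and SW480 (right), from the counts as deposited (filled) and after the GC correction (open). In SW480 the DVL1 value moves from 0.52 to 0.17 and the LRP5 value from 0.40 to 0.13 with the correction, and that of FZD3 from 0.12 to 0.39.

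In SW480 cells the same comparison again gave 0 of 10 genes past the edgeR test, where 3.3% of 14112 genes passed. At an unadjusted p under 0.05 there were 3 (FZD6, LRP5 and DVL1), for which no share of all genes is given. DESeq2 also called 0 of the 10, and 686 of 14112 genes, with 3 of the 10 at an unadjusted p under 0.05. CPM of the groups did not overlap for 9 of the 10 genes, against 58.6% of all genes, with DVL3 the exception. After the GC correction 1 of the 10 was called (FZD3), where 18% of all genes were.

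DVL1 was at 41.2 and 59.8 CPM with control siRNA and at 70.2 and 75.0 CPM with PrxII siRNA, a log2 fold change of 0.52 (interval from 0.14 to 0.90, adjusted p = 0.115). The gap between the control duplicates was wider than that from control replicate 2 to the nearer depleted library. Without control replicate 1 the DVL1 value was 0.28, without control replicate 2 it was 0.81, and with the GC correction it was 0.17 (adjusted p = 0.128). A fit with 1 library in a group assumes that this library varies like the others. For such fits of the PrxII siRNA effect, fold changes alone are given.

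LRP5 was at 96.9 and 141.9 CPM with control siRNA and at 150.3 and 164.9 CPM with PrxII siRNA. Its log2 fold change was 0.40 (interval from 0.02 to 0.78, adjusted p = 0.186). It was 0.15 without control replicate 1, 0.70 without control replicate 2 and 0.13 after the GC correction (adjusted p = 0.235). LRP6 was at 91.4 and 87.9 CPM with control siRNA and at 83.7 and 87.7 CPM with PrxII siRNA, a log2 fold change of -0.06 with an interval from -0.31 to 0.18. The LRP6 value was -0.04 without control replicate 1 and 0.09 after the GC correction (interval from -0.07 to 0.25, adjusted p = 0.433).

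FZD6 was lower in both depleted libraries, at 33.9 and 38.4 CPM against 50.1 and 44.7 CPM. Its log2 fold change was -0.39 (interval from -0.69 to -0.09, adjusted p = 0.128). It was -0.31 without control replicate 1, -0.47 without control replicate 2 and -0.17 after the GC correction (adjusted p = 0.228). FZD4 was at 22.9 and 20.9 CPM and then at 16.6 and 18.2 CPM, a log2 fold change of -0.33 (interval from -0.69 to 0.02). Without control replicate 2 its value was -0.40, and without control replicate 1 it was -0.27. The FZD4 value was -0.28 after the GC correction (adjusted p = 0.134).

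DVL2 went from 62.1 and 70.5 to 82.4 and 77.4 CPM, a log2 fold change of 0.27 (interval from 0.00 to 0.54, adjusted p = 0.206). It was 0.18 without control replicate 1, 0.36 without control replicate 2 and 0.04 after the GC correction. DVL3 was at 122.1 and 150.9 CPM with control siRNA and at 149.1 and 149.6 CPM with PrxII siRNA, so control replicate 2 alone reached the level of the depleted libraries. Its log2 fold change of 0.13 became 0.28 without control replicate 2 and -0.02 without control replicate 1, and it was -0.02 after the GC correction.

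FZD3 was called only with the GC correction among the fits of all 4 SW480 libraries without a replicate term. It went from 22.4 and 21.9 to 24.6 and 23.6 CPM, a log2 fold change of 0.12 (adjusted p = 0.621) that became 0.39 (interval from 0.12 to 0.66, adjusted p = 0.0457) with the correction. Without control replicate 1, where no correction was applied, it was 0.14. FZD5 and FZD7 were each slightly higher in both depleted libraries, with intervals from -0.17 to 0.59 and from -0.17 to 0.43. Without control replicate 1 their values were 0.15 and 0.21, and after the GC correction 0.16 and -0.02.

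The values in SW480 cells ran along the GC content of the 10 transcripts. Over the 10 genes the log2 fold change rose with GC with a Spearman's rho of 0.88 (n = 10), the difference between the control duplicates with 0.71, and the log2 fold change in HT29 cells with -0.22. These are descriptions over genes that share their libraries. Over all genes, rho was 0.54 in SW480 and -0.05 in HT29, and the medians of the lowest and highest of 10 GC bins in SW480 were -0.25 and 0.32 on the log2 scale. FZD3, with the lowest GC, lay above the median of its bin, and FZD6, with the next lowest GC, lay below it. The part of the library difference in the SW480 values was not tested beyond the fits with and without it.

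**Figure D5:**
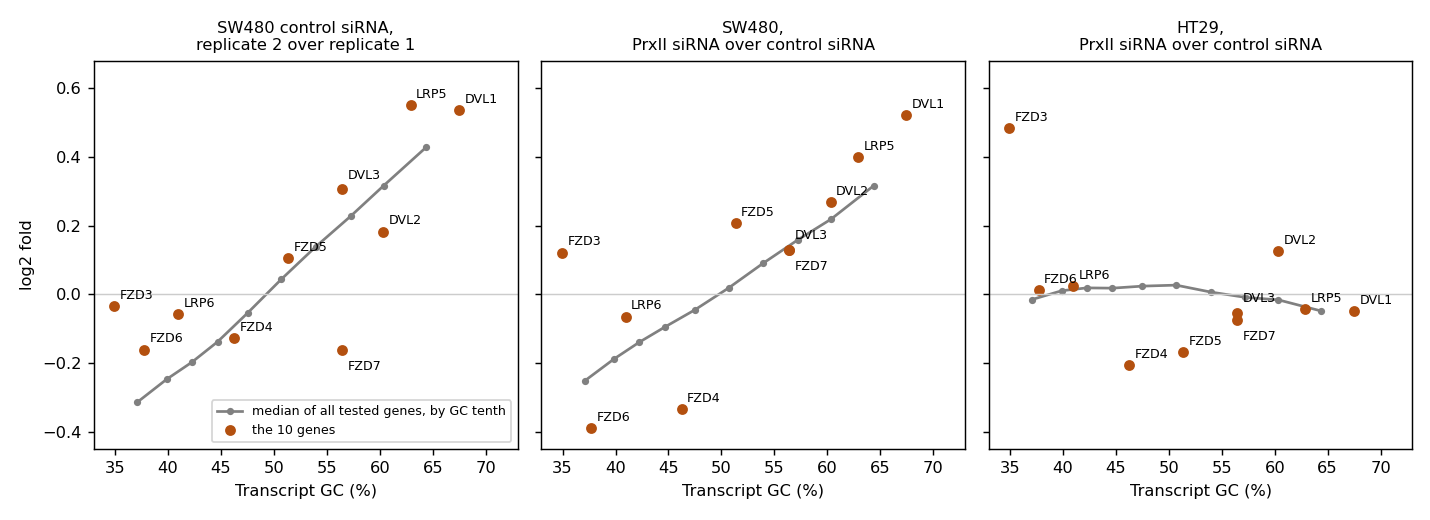
Transcript GC (x axis, %) against the log2 fold (y axis) between the SW480 control duplicates (left), of PrxII siRNA in SW480 (middle) and of PrxII siRNA in HT29 (right); the grey line joins medians of all tested genes in 10 bins of GC and orange points are the 10 genes. In SW480 the medians run from -0.25 to 0.32 and LRP5 and DVL1 lie at the upper right in both left panels, while in HT29 the medians stay within 0.05 of 0.

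The effect of PrxII siRNA was then compared between the lines in 1 fit of all 8 libraries. None of the 10 genes differed, where 1.12% of 14772 genes did. At an unadjusted p under 0.05 there were 4 of the 10, for which no share of all genes is given. DESeq2 called 0 of the 10 and 311 of 14772 genes, with 2 of the 10 at an unadjusted p under 0.05. FZD3 and FZD4 had no DESeq2 adjusted p here either. After the GC correction 0 of the 10 and 6.83% of all genes were called. The difference, HT29 minus SW480 on the log2 scale, was -0.57 for DVL1 (interval from -0.98 to -0.15, adjusted p = 0.149), -0.44 for LRP5, 0.41 for FZD6 and -0.37 for FZD5 (interval from -0.70 to -0.04, adjusted p = 0.212). FZD5 was the least moved of these by the GC correction, at -0.35 (interval from -0.62 to -0.07, adjusted p = 0.124), against -0.16 for DVL1, -0.14 for LRP5 and 0.18 for FZD6. Without SW480 control replicate 1 the differences were -0.33 for DVL1, -0.19 for LRP5, 0.32 for FZD6 and -0.32 for FZD5. Without SW480 control replicate 2 they were -0.88, -0.75, 0.47 and -0.44.

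Lists of other receptor-level genes were read from the same fits. Between the lines, 31.8% of all genes tested were called higher in HT29 and 35.7% lower. No test compared the lists with all genes. Of the 5 other Frizzled genes, 4 were tested between the lines and 4 were lower in HT29. FZD9 and FZD10 were listed at 0 in all HT29 libraries and stood at 4.97 and 6.87 TPM and at 2.43 and 2.29 TPM in SW480 control libraries. FZD1 and FZD2 were at 1.17 to 1.95 TPM in HT29 and at 12.81 to 16.1 TPM in SW480 with control siRNA. Among Wnt ligands, 10 of 19 were tested between the lines, 2 were higher and 7 lower in HT29. WNT7B was at 22.12 and 21.32 TPM in HT29 against 2.16 and 1.68 TPM in SW480, and WNT11 at 18 and 21.85 TPM against 2.43 and 1.85 TPM.

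Among the other coreceptors, 2 of 7 were higher and 4 lower in HT29, where 31.8% of all genes tested were higher and 35.7% lower. LRP4, which belongs to the same protein family as LRP5, and ROR2, a receptor for WNT5A, were listed at 0 in both HT29 control libraries. In SW480 LRP4 was at 6.05 and 7.75 TPM and ROR2 at 8.74 and 12.59 TPM. Of the 9 tested antagonists 2 were higher and 6 lower. SOSTDC1, which binds LRP coreceptors, was at 36.3 and 30.76 TPM in HT29 and 3.34 and 4.33 TPM in SW480, while APCDD1, a membrane inhibitor, was at 0.17 and 0.18 against 744.3 and 867.9 TPM. The R-spondin receptor and ligase list had 4 higher and 1 lower of 5 tested, the Dishevelled regulators 4 and 10 of 20, the kinases and folding factors of the LRP tail 6 and 4 of 12, the planar polarity partners 4 and 6 of 16, and the ligand secretion genes 1 and 2 of 3.

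In HT29 cells, members of several of these lists changed after PrxII siRNA, where 7.77% of all genes tested rose and 9.82% fell. The lists are short, and no test compared them with all genes or with the 10 genes. Of 18 tested Dishevelled regulators 5 rose and 0 fell, with a median of 0.09 against 0.00 for all genes. NKD1, a Dishevelled-binding inhibitor that is itself a Wnt target, went from 1.06 and 0.9 to 3.75 and 4.27 TPM, a log2 fold change of 1.96 (SE 0.17, adjusted p = 1.97e-07). DAB2, an adaptor known to bind Dishevelled, rose by 0.46 (adjusted p = 0.00274). Of 11 tested LRP kinases and folding factors 4 rose and 0 fell, PIP5K1B by 0.41 (adjusted p = 0.0334). Of 14 planar polarity partners 0 rose and 4 fell.

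Of 3 tested antagonists 2 fell in HT29, SOSTDC1 by 0.80 and DKK1, an inhibitor that binds LRP5 and LRP6, by 0.65 on the log2 scale (adjusted p = 6.09e-05 and 2.74e-06). DKK1 was at 84.25 and 95.76 TPM with control siRNA and at 59.16 and 60.87 TPM with PrxII siRNA. WNT11, the 1 called of 3 tested ligands, fell by 1.14 (adjusted p = 6.45e-05), from 18 and 21.85 to 8.03 and 10.98 TPM. The coreceptor list had 2 higher and 1 lower of 5 tested, the R-spondin list 0 and 1 of 4, the ligand secretion list 1 and 0 of 3 and the other Frizzled genes 0 and 0 of 2.

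In SW480 cells 3 genes of these lists passed the test after PrxII siRNA, all higher. They were 2 of 12 tested ligands and 1 of 9 tested antagonists. Of all 14112 genes tested 3.3% passed, 172 higher and 294 lower. No test compared the lists with all genes. The ligand WNT9A went from 1.71 and 2.93 to 9.63 and 10.45 TPM, a log2 fold change of 2.003 (adjusted p = 0.0173). WNT5A, the ligand best known for signalling without β-catenin, went from 106.3 and 91.5 to 146.5 and 152.5 TPM, a log2 fold change of 0.52 (adjusted p = 0.0369). SFRP5, a secreted decoy that binds Wnt proteins, went from 21.7 and 28.2 to 55.3 and 54.7 TPM, with 1.05 (adjusted p = 0.0135). After the GC correction these values were 1.80, 0.66 and 0.77. Values of these genes without control replicate 1 are not given. The other 7 lists had 0 called on the counts as deposited. Tested there were 20 Dishevelled regulators, 16 planar polarity partners and 12 LRP kinases and folding factors. The rest were 6 coreceptors, 5 genes of the R-spondin list, 5 other Frizzled genes and 3 secretion genes. After the GC correction, where 18% of all genes were called, the called genes that were higher and lower were 2 and 2 among the LRP kinases and folding factors, 0 and 2 in the R-spondin list, 0 and 2 among the Dishevelled regulators, 0 and 3 among the planar polarity partners, 1 and 1 among the antagonists and 2 and 0 among the ligands. The other Frizzled genes, the secretion genes and the coreceptors had 0 called.

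For each of the 10 genes, 1 gene outside the list had the most similar profile over the 8 libraries by Pearson's r of log2(TPM + 1), among 11563 genes with a mean of at least 5 TPM. Except for FZD6 the TPM of the lines did not overlap, so the likeness mostly describes the line difference. For LRP6 the gap was narrow, from 18.66 TPM in HT29 to 18.98 TPM in SW480. FZD5 was most like ATHL1, which was at 68.5 to 78.5 TPM in HT29 and 6.68 to 9.9 TPM in SW480. LRP5 was most like LIPE (13.3 to 14.7 against 2.15 to 5.24 TPM) and DVL1 most like CHDH (25.0 to 26.4 against 11.6 to 19.9 TPM). FZD3 was most like SEPT3, FZD4 like DICER1, FZD7 like PPP3CC, LRP6 like C12orf66, DVL2 like UROD and DVL3 like POLR2F. FZD6 had the weakest best match, TAF1A, with an r of 0.90 over the 8 libraries, against 0.976 to 0.999 for the other 9 genes.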

How the data were processed

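Gene-level tables of 8 libraries were used. Per the labels and the study's methods, mRNA libraries were made from total RNA with the TruSeq kit v2; the authors named FastQC, DESeq2 and the hg19 build in their processing notes, and the methods name MapSplice for alignment and RSEM for quantification. The methods describe HT29 only. The deposited files hold expected counts, TPM and FPKM per refGene symbol; the deposited TPM values are scaled for length and library total, so a few abundant genes can move them, and FPKM was not used. Which strand was counted is not given in the sources used here. All 80 values of the 10 genes lay within 0.005 of a whole count.

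Deposited expected counts were rounded and tested with edgeR 4.0.16 (quasi-likelihood, TMM, at least 10 counts in at least 2 libraries, Benjamini-Hochberg over all genes tested, threshold 0.05). Within-line comparisons used the 4 libraries of the line, the line comparison the 4 control libraries, and the difference all 8. Fold changes are on the edgeR scale. For the GC correction, a robust loess fit (span 0.5) of log CPM against transcript GC was made in each library; a GC value, which 91.4% of symbols had (GENCODE on GRCh37), was required, and the fit entered as an offset. Alternatives were RLE size factors, no filter, DESeq2 1.42.0, limma 3.58.1 on log2 TPM with a pseudocount of 1 or 0.1 and a mean of at least 1 TPM, robust dispersion, joint fits, replicate terms and leaving out each library. The text names the 10 genes, PRDX2, the 3 largest rises and falls among called list genes with a mean of at least 1 CPM, and the other Frizzled genes, which were added after their values were seen. The 10 genes and the lists were chosen with earlier results of these data known. Scripts were tested on simulated data. Intervals are 95% confidence intervals of edgeR fits, and counts floors cover counting error only.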

Additional observations from a re-analysis of the deposited data

Results flagged for a closer look

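The test of the difference in effect between lines was past the threshold for 4 named genes outside the list of 10 (edgeR, adjusted p under 0.05). The log2 difference, HT29 minus SW480, was 0.84 for PRDX2, 2.26 for NKD1, 0.88 for DAB2 and -1.96 for WNT11. The remaining PRDX2 level was thus lower relative to control in SW480. After the GC correction the difference was 2.29 for NKD1, 0.78 for DAB2 and -1.74 for WNT11. Values of the 4 genes without SW480 control replicate 1 are not given.

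FZD5 and FZD7 are listed because the CPM of both depleted libraries were below both controls in HT29 and above both controls in SW480. For FZD7 the nearest libraries were almost level. They were at 22.57 CPM with control siRNA and 22.51 CPM with PrxII siRNA in HT29, and at 34.80 and 34.85 CPM in SW480. In TPM the FZD7 groups overlapped in HT29. For FZD5 the difference was -0.37 and for FZD7 it was -0.20, and neither passed the test of the difference (edgeR, adjusted p = 0.212 and 0.488). With the GC correction FZD7 in SW480 was -0.024, so that its value was below 0 in both lines, and the difference was -0.05 (adjusted p = 0.903), while that of FZD5 was -0.35 (adjusted p = 0.124).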

How the results depend on the processing

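The count of 0 called genes in HT29 became 1 with the replicate block and GC correction together (FZD5), where 3069 of 12566 genes were called. In SW480 the count of 0 became 1 with the GC correction, 1 with the replicate block and GC correction, 2 with the replicate block (LRP5 and DVL1), 2 with all 8 libraries fitted together (FZD6 and DVL1), and 0 to 6 when a library was left out, 3 without control replicate 1 and 6 without control replicate 2. For the difference between lines, leaving out a library turned the sign of DVL2 alone. For the line comparison the count of 8 was 5 to 8, 5 of them without HT29 control replicate 1. Same-numbered libraries share only a number: their deviations correlated by 0.05, 0.08 and 0.05 across genes, and the replicate block alone changed no count but that of SW480. The 9 shares at the smallest p were so on expected counts too, and the count past 0.05 was 0 when the line was permuted within each siRNA, an alternative added after seeing the data, whose exact p cannot be below 0.0556. Leaving out a library, added after seeing the data and without a test (4 against 3 libraries cannot pass 0.05), kept the sign of all 10 share differences. The cause of these changes was not tested.

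Signs of log2 fold changes turned only for genes not called in that comparison. In HT29, LRP5 was 0.021 with limma at all 3 settings and 0.011 after GC correction, whether or not the block was added. DVL1 was 0.016 with limma at all 3 settings, 0.032 with the GC correction, with and without the block, and -0.097 to 0.0044 without a library. DVL3 was 0.0094, 0.0096 and 0.0094 with limma and -0.12 to 0.015 without a library. FZD6 was -0.066 to 0.097, LRP6 -0.042 to 0.095 and DVL2 -0.013 to 0.27 without a library. In SW480, FZD7 was -0.024 with the GC correction, with and without the block, DVL3 was -0.019 without and -0.018 with the block, and DVL3 was -0.017 to 0.28 without a library. LRP6 was 0.025, 0.026 and 0.025 with limma, 0.089 with the GC correction and 0.090 with the block added. For the difference between lines, FZD3 was -0.0026 with limma on log2(TPM + 1), with and without the filter. LRP6 was -0.084 and DVL2 0.10 with the GC correction, and -0.083 and 0.11 with the block added. DVL2 was -0.28 to 0.0056 without a library. For the line comparison, FZD6 was -7.87e-05 with DESeq2 and -0.12 with limma at all 3 settings, and -0.13 to 0.12 without a library. LRP6 was 0.0032 with the GC correction and 0.0037 with the block added, and -0.15 to 0.040 without a library. In that comparison the median of all genes was -0.04 with edgeR and -0.15 with limma on log2(TPM + 0.1). Groups of 2 libraries and about 23 to 33 counts limit FZD3 in HT29.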
